A study of Drosophila melanogaster with 8 samples.

Results

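Trehalose and glycogen metabolism was examined through 7 genes of the enzymes that make and break down these sugars, Tps1, Treh, GlyP, GlyS, AGBE, CG9485 and UGP. The genes were taken by their symbol from the deposited gene table, which named 17518 genes, and all 7 were among the 12048 genes that passed the filter on low counts. RNA had been extracted from the heads of male flies that spent 1 day under starvation or 1 day on food, with 4 biological samples per condition and 30 flies per sample. Flies of both conditions were 1 to 3 d old and of the white-eyed strain w1118, and the labels name no transgene. In the activity tests of the study, starvation meant tubes of plain agar, and food meant agar with sucrose and yeast.

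A fly head holds brain, eyes, muscle, blood cells and fat body, and each library mixed all of these. Library totals lay between 48541958 and 50814153 counts under starvation and between 47936038 and 53168449 on food. Values are given as CPM, the counts of a gene per fixed number of counts in its library, with library totals scaled by edgeR's TMM factors. Starvation replicate 3 stood apart: its mean correlation across genes with the other starvation libraries was 0.980, against 0.985 to 0.987 for those libraries, and its 10 most abundant genes took 25.6% of its counts, against 18.4% to 20.3%.

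Trehalose is a sugar of 2 joined glucose units and the main sugar in insect blood, whereas glycogen is a branched glucose polymer kept inside cells, chiefly in fat body, muscle and glia. Both are built from UDP-glucose, the activated form of glucose that UGP supplies. Trehalose is released into the blood and split to glucose where it is used, and glycogen is cut from its chain ends to glucose 1-phosphate, with a separate enzyme for the branch points.

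After 1 day of starvation, 5 of the 7 genes were lower, 1 was higher and 1 did not pass the test. AGBE, CG9485 and GlyP fell by more than 2-fold, UGP and GlyS fell by less, and Treh rose by 27.1%. Tps1 had a mean 12.8% lower, within the spread between libraries. At an adjusted p under 0.05 (edgeR's quasi-likelihood test, Benjamini-Hochberg adjustment over all genes tested), 16.7% of all genes fell and 10% rose (26.7% in either direction). With a fold change of at least 2 as well, the 3 genes AGBE, CG9485 and GlyP were called lower and none higher, against 5.37% and 0.930% of all genes (6.30% in either direction). The median log2 fold change was -0.82 over the 7 genes and -0.01 over all genes tested. All starvation libraries lay below all food libraries for 5 of the 7 genes and above them for 1, against 18.6% and 12.6% of all genes (31.2% in either direction). Since RNA was taken from whole heads, fewer cells of a type and less RNA per cell cannot be told apart.

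**Figure D1:**
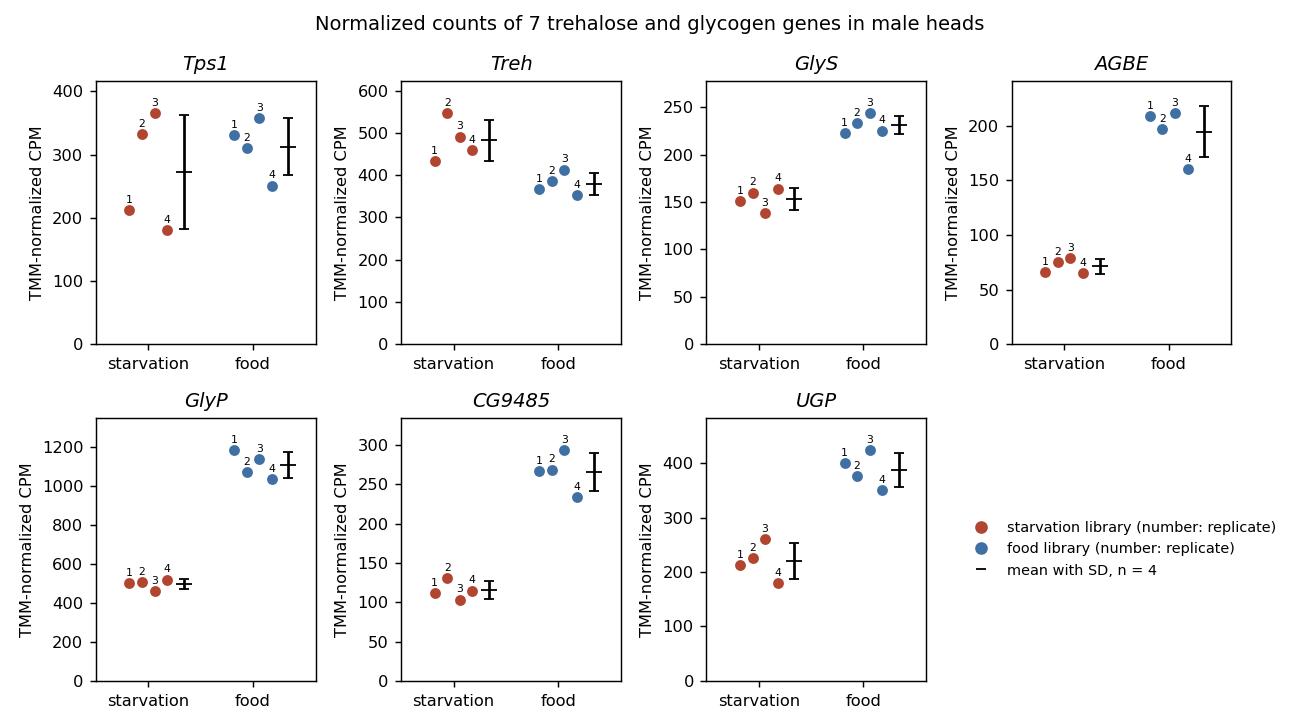
Normalized counts (TMM-normalized CPM, axes from 0) of the 7 genes, with a point for each library, numbered by replicate, and the mean with its SD (n = 4) beside each condition. Starvation libraries lie below all food libraries for GlyS, AGBE, GlyP, CG9485 and UGP and above them for Treh, and the conditions overlap for Tps1.

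Glycogen breakdown depends on GlyP and CG9485. GlyP, glycogen phosphorylase, cuts glucose units off the chain ends as glucose 1-phosphate. In coordinates of the release 6 genome it lies on chromosome 2L from 2130813 to 2137296 and has 3144 exonic bases. GlyP had 500.1, 507, 461 and 519 CPM in starvation replicates 1 to 4, against 1182, 1070, 1135 and 1033 CPM in food replicates 1 to 4. The starvation libraries were close together, and the lowest food library was far above the highest of them. The means were 497 ± 25.3 CPM under starvation and 1100 ± 66.8 CPM on food (SD, n = 4), which makes -1.15 on the log2 scale, with SE 0.09 and a 95% confidence interval (CI) of -1.34 to -0.96 (adjusted p = 6e-06 in edgeR's quasi-likelihood test). The spread between replicates was 5.1% of the mean under starvation, the smallest of the 7 genes.

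CG9485 encodes the predicted glycogen debranching enzyme, which removes the branch points that stop the phosphorylase. It lies on 2R from 21312399 to 21319569, and its 5491 exonic bases are the most of the 7 genes. CG9485 had 112, 131, 104 and 115 CPM in the starvation replicates, against 267, 269, 294 and 234 CPM in the food replicates. The highest starvation library was thus well under the lowest food library. The log2 fold change was -1.21 (SE 0.10, 95% CI -1.43 to -0.99, adjusted p = 1.2e-05 in the same edgeR test), a 2.31-fold lower level under starvation. For GlyP and CG9485 alike, the exact two-sided permutation test over libraries gave p = 0.0286, the smallest that 4 libraries against 4 allow.

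Glycogen synthesis depends on GlyS, which extends the chain with glucose from UDP-glucose, and on AGBE, which adds the branches. GlyS, glycogen synthase, lies on 3R from 15141843 to 15147531. It had 151, 160.1, 138 and 164 CPM in the starvation replicates, against 223, 234, 244 and 226 CPM in the food replicates. Its fall was smaller than that of GlyP, with no overlap between conditions. The log2 fold change was -0.59 (SE 0.08, 95% CI -0.77 to -0.41, adjusted p = 0.00034 in edgeR's quasi-likelihood test), below the 2-fold threshold.

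AGBE, the glycogen branching enzyme, lies on 2R from 13171401 to 13174796 and has 2322 exonic bases, the fewest of the 7 genes. It had 66.1, 75.4, 79 and 65.1 CPM in the starvation replicates, against 209, 197, 211 and 160.5 CPM in the food replicates. This was the largest fall among the 7 genes, and even food replicate 4, the lowest food library, was above each starvation library by a wide margin. With means of 71.4 ± 6.88 CPM under starvation and 194 ± 23.5 CPM on food (SD, n = 4), AGBE was 2.72-fold lower (log2 fold change -1.45, SE 0.11, 95% CI -1.69 to -1.20, adjusted p = 6e-06 in the edgeR test). When the change itself was tested against 2-fold with edgeR's glmTreat, AGBE passed (adjusted p = 0.0092), whereas CG9485 (adjusted p = 0.24) and GlyP (adjusted p = 0.38) did not.

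UGP, UDP-glucose pyrophosphorylase, makes UDP-glucose from glucose 1-phosphate, and so feeds GlyS, Tps1 and the sugar chains of glycoproteins. It lies on 3L from 9350867 to 9358935. UGP had 213, 225, 259.9 and 180.1 CPM in the starvation replicates, against 401, 376, 424 and 350.5 CPM in the food replicates. All starvation libraries were lower than all food libraries. The log2 fold change of UGP was -0.82 (SE 0.12, 95% CI -1.08 to -0.56, adjusted p = 0.00043 in edgeR's quasi-likelihood test). For GlyS, AGBE and UGP the exact permutation test also gave its smallest possible value (p = 0.0286).

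Tps1 and Treh make and split trehalose. Tps1, on 2L from 4388327 to 4392778, makes trehalose 6-phosphate from UDP-glucose and glucose 6-phosphate, the first step to trehalose. It had 212, 332, 365 and 180.0 CPM in the starvation replicates, against 330.4, 309.7, 357 and 251 CPM in the food replicates. Starvation replicates 2 and 3 were within or above the food range, and starvation replicates 1 and 4 were below it, so the conditions overlapped. The SD was 33.1% of the mean under starvation and 14.5% on food. The log2 fold change of Tps1 was -0.20 (SE 0.21, adjusted p = 0.56 in the edgeR test; exact two-sided permutation test, p = 0.457). Its 95% CI, -0.67 to 0.27, takes in no change as well as a fall larger than that of GlyS. Without starvation replicate 4 the value was -0.01, and without starvation replicate 3 it was -0.37 (adjusted p = 0.16).

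Treh, trehalase, splits trehalose into glucose. The gene lies on 2R from 21074018 to 21088945 and has 4369 exonic bases. It had 433, 546, 491 and 458 CPM in the starvation replicates, against 366, 387, 413 and 352 CPM in the food replicates. Treh was the only one of the 7 genes with all starvation libraries above all food libraries, by a margin of 433 CPM in the lowest starvation library against 413 CPM in the highest food library. Its log2 fold change was 0.35 (SE 0.10, 95% CI 0.13 to 0.56, adjusted p = 0.022 in edgeR's quasi-likelihood test; exact permutation test, p = 0.0286). The call did not hold without starvation replicate 2 (log2 fold change 0.28, adjusted p = 0.070), nor without food replicate 1 (0.33, adjusted p = 0.072), food replicate 2 (0.35, adjusted p = 0.060) or food replicate 4 (0.31, adjusted p = 0.073). RefSeq listed 7 transcripts for Treh, and the counts did not separate them.

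Levels of different genes were compared per exonic kilobase (RPKM). GlyP had the highest level of the 7 in both conditions, at 158 ± 8.06 RPKM under starvation and 351 ± 21.2 RPKM on food (SD, n = 4). On its mean over all libraries, only 2.15% of the genes tested had a higher RPKM. CG9485 had the lowest level, at 21.0 ± 2.09 RPKM under starvation and 48.4 ± 4.44 RPKM on food.

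The order in between differed by condition. Under starvation, Treh (110 ± 11.2 RPKM) came after GlyP, followed by Tps1 (93.2 ± 30.8), UGP (72.8 ± 11), GlyS (45.9 ± 3.46) and AGBE (30.7 ± 2.96). On food the order after GlyP was UGP (129 ± 10.5 RPKM), Tps1 (107 ± 15.5), Treh (86.9 ± 6.01), AGBE (83.7 ± 10.1) and GlyS (69.3 ± 2.79). Neighbours in these orders were not all apart. Treh, Tps1 and UGP overlapped in succession under starvation, and the run from UGP through Tps1, Treh and AGBE to GlyS overlapped in succession on food.

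As shares of the summed RPKM of the 7 genes, which do not depend on how libraries are scaled, Treh took 19.9% to 21.6% in starvation libraries and 9.2% to 10.3% in food libraries. GlyP took 26% to 33.7% under starvation and 38.6% to 41.5% on food. AGBE took 5.6% to 6.0% under starvation and 8.7% to 9.9% on food. The share of Treh was thus larger, and those of GlyP and AGBE smaller, in each starvation library than in each food library. Together the 7 genes made up 0.170% to 0.207% of the counts of a starvation library and 0.260% to 0.297% of those of a food library.

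**Figure D2:**
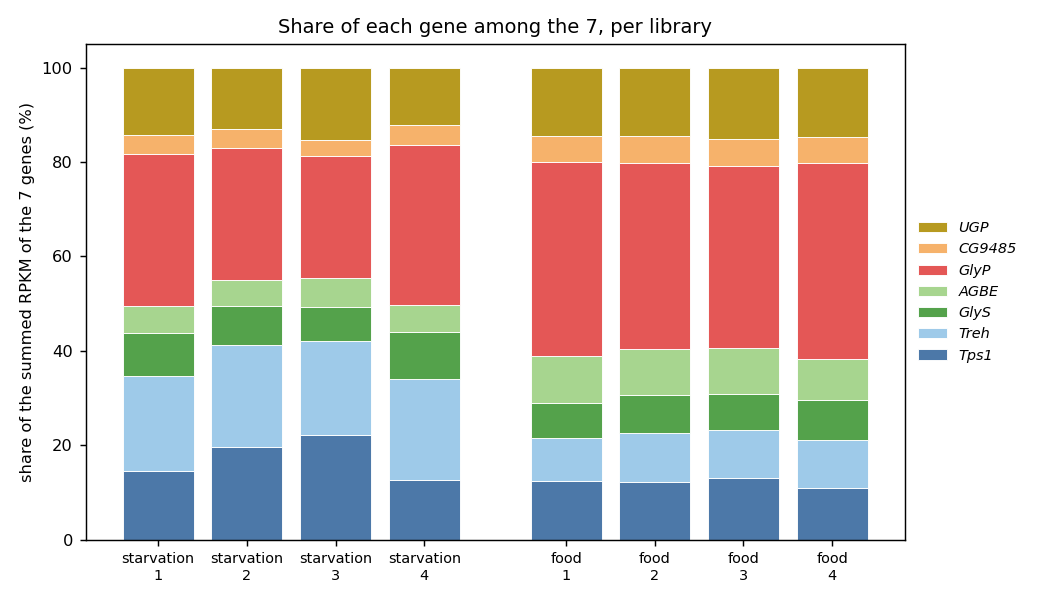
Share of each gene in the summed RPKM of the 7 genes (%), with a stacked bar for each of the 4 starvation and 4 food libraries. The band of Treh is near 20.7% on average under starvation and near 9.9% on food, and that of GlyP near 29.9% under starvation and near 40.2% on food.

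Whether the genes changed by the same amount was examined with 6 ratios between genes within a library, each per exonic kilobase. GlyP over GlyS, breakdown over synthesis, was 3.51, 3.37, 3.54 and 3.36 in the starvation replicates, against 5.63, 4.86, 4.95 and 4.86 in the food replicates. The phosphorylase thus fell more than the synthase, with a difference in the log2 ratio of -0.56 (exact two-sided permutation test, p = 0.0286, adjusted p = 0.0429 over the 6 ratios). AGBE over GlyS, the enzymes of synthesis, averaged 0.674 ± 0.108 under starvation and 1.21 ± 0.135 on food (SD, n = 4), a difference of -0.85 on the log2 scale. UGP over Tps1 averaged 0.823 ± 0.172 under starvation and 1.21 ± 0.0939 on food, a difference of -0.58. Both ratios were lower in every starvation library than in every food library (exact permutation test, p = 0.0286 and adjusted p = 0.0429 for each). GlyP over Treh was 1.6, 1.29, 1.30 and 1.57 in the starvation replicates, against 4.49, 3.84, 3.82 and 4.07 in the food replicates. This was the largest of the 6 differences, at -1.50 (exact permutation test, p = 0.0286, adjusted p = 0.0429).

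The remaining ratios did not pass. CG9485 over GlyP, the enzymes of breakdown, was 0.128, 0.148, 0.129 and 0.127 in the starvation replicates, against 0.129, 0.144, 0.148 and 0.130 in the food replicates. The ratio therefore moved by -0.05 on the log2 scale, with overlapping libraries (exact permutation test, p = 0.40, adjusted p = 0.40), and by -0.11 to -0.02 when single libraries were left out. Treh over Tps1 was 1.37, 1.10, 0.899 and 1.70 in the starvation replicates, against 0.741, 0.834, 0.772 and 0.938 in the food replicates. Its difference was 0.59 on the log2 scale, but starvation replicate 3 lay below food replicate 4 (exact permutation test, p = 0.0571, adjusted p = 0.0686). Without starvation replicate 3 the difference was 0.74 (exact permutation test, p = 0.0286 before adjustment). Starvation replicate 3 was the only starvation library that overlapped food, so leaving it out fixed that p in advance, and no conclusion is drawn from it.

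**Figure D3:**
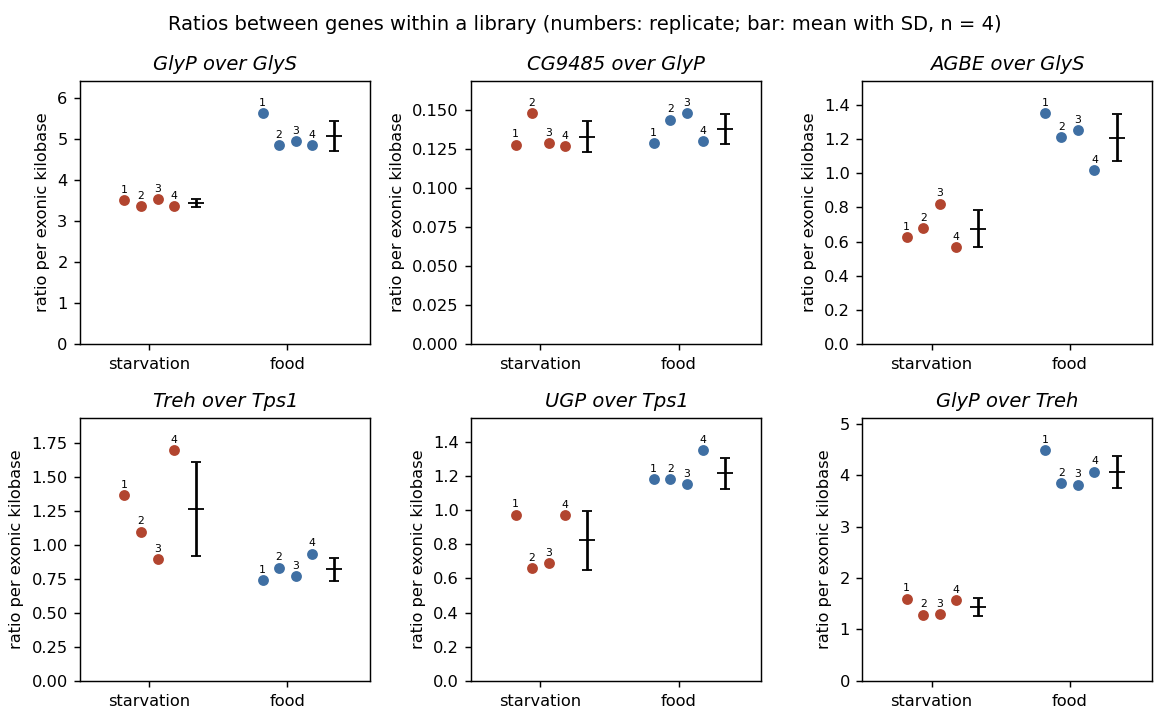
Ratios between pairs of the 7 genes within a library, per exonic kilobase (axes from 0), with a point for each library and the mean with its SD (n = 4). Starvation libraries lie below all food libraries for GlyP over GlyS, AGBE over GlyS, UGP over Tps1 and GlyP over Treh, and the conditions overlap for CG9485 over GlyP and Treh over Tps1.

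Libraries of a condition also differed from each other. On food, replicate 4 was the lowest library for 6 of the 7 genes and replicate 3 was the highest for 6 of 7; the exceptions were GlyS, lowest in replicate 1, and GlyP, highest in replicate 1. Markers of fat body summed to 11050 CPM in food replicate 3 and 6650 CPM in food replicate 4, the highest and the lowest food libraries for that sum as well. The same held for hemocyte markers (1947 and 1230 CPM) and photoreceptor markers (25910 and 22940 CPM). Neuronal and muscle markers were lowest in food replicate 3 and highest in food replicate 4, and glial markers were highest in food replicate 2 and lowest in food replicate 4. Starvation libraries showed no such common order: replicate 3 was the lowest for GlyP, GlyS and CG9485 and the highest for Tps1, AGBE and UGP. Without starvation replicate 3, the library that stood apart, the log2 fold changes were -1.49 for AGBE, -1.16 for CG9485, -1.12 for GlyP, -0.91 for UGP, -0.54 for GlyS, -0.37 for Tps1 and 0.34 for Treh, and each gene kept its call in edgeR's test.

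Markers of the cell types in a head were compared in the same way. The 10 fat body markers summed to between 975 and 1350 CPM under starvation and between 6650 and 11050 CPM on food. Of these, 8 were lower at an adjusted p under 0.05 and none higher, with a median log2 fold change of -2.80 over 9 tested. Lsp2, a storage protein, was at 14.9 ± 7.14 CPM under starvation and 3900 ± 1100 CPM on food, whereas Fbp1 (0.167 CPM under starvation and 0.234 CPM on food) and Fbp2 were at or near 0 in all libraries. The 8 glial markers summed to between 1460 and 1780 CPM under starvation and between 2410 and 2750 CPM on food. All 8 were lower (median log2 fold change -0.62), with moody and alrm near the threshold. In edgeR's test the adjusted p was 0.05 after rounding for moody and 0.048 for alrm. For moody the conditions overlapped (exact permutation test, p = 0.0571). Hemocyte markers summed to between 238 and 398 CPM under starvation and between 1230 and 1950 CPM on food, with 7 of 8 lower. Most of the sum on food was Nplp2 (1380 CPM, against 160 CPM under starvation). The marker that did not pass was crq, at 129 CPM under starvation and 142 CPM on food (adjusted p = 0.24 in edgeR's test). No neuronal marker (0 of 8, median 0.01) and no muscle marker (0 of 8, median -0.21) passed edgeR's test, and their sums overlapped between conditions. Of 7 photoreceptor markers 2 were higher, and these markers summed to between 27300 and 34600 CPM under starvation and between 22900 and 25900 CPM on food. Fat body, glia and hemocyte markers thus moved with the fall of the glycogen genes, and their part in that fall was not tested.

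**Figure D4:**
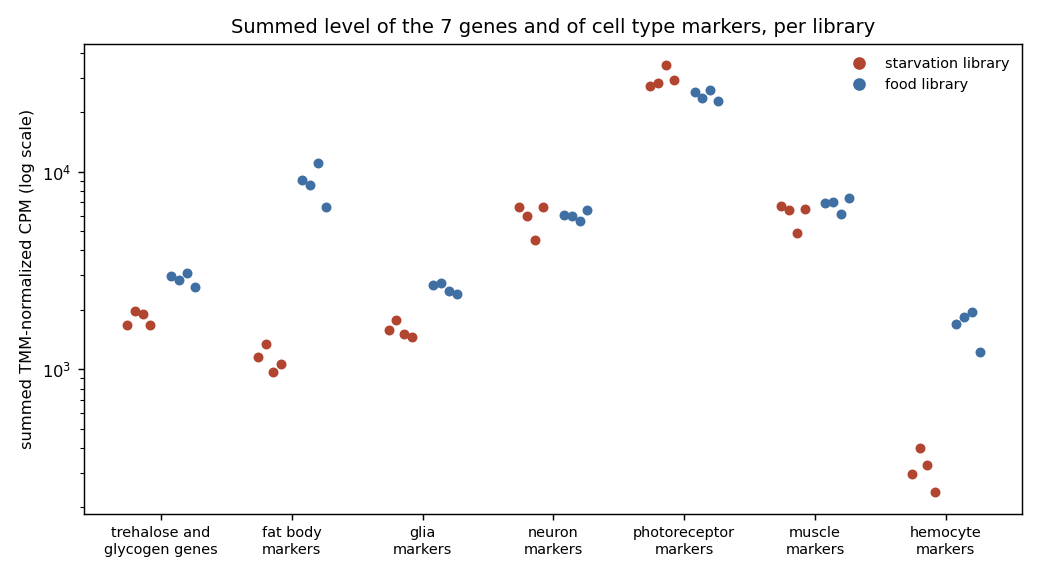
Summed normalized level (TMM-normalized CPM, log scale) of the 7 genes and of marker lists for 6 cell types, with a point for each of the 4 starvation and 4 food libraries. The 7 genes lie between 1680 and 1980 CPM under starvation and between 2610 and 3080 CPM on food, and fat body, glia and hemocyte markers are also lower in all starvation libraries.

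Other genes of the same pathways were described from lists. Among 12 genes next to the 7 in trehalose and glycogen metabolism, 7 were lower and 1 was higher at an adjusted p under 0.05. The shares of all genes tested were 16.7% lower and 10% higher. Of the 12 genes, 2, CG5171 and Tret1-2, were lower by at least 2-fold as well, against 5.37% of all genes tested. The median log2 fold change of the 12 genes was -0.26, against -0.01 over all genes tested. CG5171, a predicted phosphatase of trehalose 6-phosphate, had 12.3 ± 1.61 CPM under starvation and 34.2 ± 4.51 CPM on food (SD, n = 4; log2 fold change -1.47, adjusted p = 1.1e-05 in edgeR's test). CG5177, its listed neighbour on 2L, was more abundant, with 52.8 ± 2.82 CPM under starvation and 64.7 ± 2.85 CPM on food. Its log2 fold change was -0.29 (adjusted p = 0.0085 in edgeR's test). That call was lost with upper-quartile factors (adjusted p = 0.11) and without starvation replicate 1 (adjusted p = 0.058).

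The trehalose transporter gene Tret1-1 had 237 ± 16.9 CPM under starvation and 352 ± 38.2 CPM on food, a log2 fold change of -0.57 (adjusted p = 0.0015). Tret1-2, the adjacent paralogue, had 4.82 ± 1.35 CPM under starvation and 11.6 ± 2.68 CPM on food, and the counting could have split reads between the pair. Gbs-70E, a subunit that directs protein phosphatase to glycogen, had 76.7 ± 12.1 CPM under starvation and 150 ± 19.0 CPM on food (log2 fold change -0.97, adjusted p = 0.00026). PhKgamma, the catalytic subunit of phosphorylase kinase, which switches the phosphorylase on, was at -0.26 (adjusted p = 0.038). The call of PhKgamma held without starvation replicate 1 or 3 and was lost without any other single library (adjusted p between 0.051 and 0.11). CG8475, a predicted regulatory subunit of the same kinase, was the gene of the list that rose, by 0.33 on the log2 scale (adjusted p = 0.018), and that call did not hold without starvation replicate 2 or food replicates 1, 2 or 4 (adjusted p between 0.054 and 0.064). Gyg, the glycogenin that primes new chains, was at -0.12 (adjusted p = 0.53) and overlaps another gene in the table.

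Glucose phosphates and UDP-glucose are shared with other routes. Among 17 such genes, of which 16 were tested, 8 were lower and 2 were higher at an adjusted p under 0.05. Of all genes tested, 16.7% were lower and 10% higher at that threshold. The median log2 fold change of the list was -0.31. Galt, which exchanges galactose for glucose on UDP-glucose, was at -1.33 (adjusted p = 0.00023 in edgeR's test), and Galk, the galactokinase, at -0.95 (adjusted p = 0.0041). Hex-C, a hexokinase, had 35.7 ± 13.2 CPM under starvation and 78.6 ± 15.5 CPM on food (log2 fold change -1.14, adjusted p = 0.0052), whereas Hex-A, the more abundant hexokinase, had 401 ± 6.79 CPM under starvation and 350 ± 21.0 CPM on food (log2 fold change 0.20, adjusted p = 0.088). Pgm, phosphoglucomutase, which joins glucose 1-phosphate and glucose 6-phosphate and so links glycogen to the rest of sugar metabolism, was at 0.14 (adjusted p = 0.50). Pepck1, an enzyme of glucose synthesis whose gene overlaps another in the table, was at 0.02 (adjusted p = 0.96). In the same list fbp was lower, at -0.93 (adjusted p = 0.0031 in edgeR's test), and so was Pepck2, at -0.63 (adjusted p = 0.029). The call of Pepck2 held without starvation replicate 3 or food replicate 4. It was lost without any other single library (adjusted p between 0.058 and 0.11). G6P was at 0.29 and did not pass (adjusted p = 0.092). The 2 genes that rose were Gfat2 and sgl. Gfat2, which draws fructose 6-phosphate towards hexosamines, rose to 61.8 ± 6.19 CPM under starvation, against 34.3 ± 1.58 CPM on food (log2 fold change 0.85, adjusted p = 3.5e-05). For sgl, the UDP-glucose dehydrogenase, the value was 0.27 (adjusted p = 0.030), and the count of genes that rose was 1 without starvation replicate 1 or 2 or without food replicate 1, 2 or 4. Galt and Hex-C were among the 3 genes lower by at least 2-fold, against 5.37% of all genes tested. Of the list, 1 gene was so without starvation replicate 1 or without starvation replicate 4, and 5 were so without starvation replicate 3 or without food replicate 4.

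**Figure D5:**
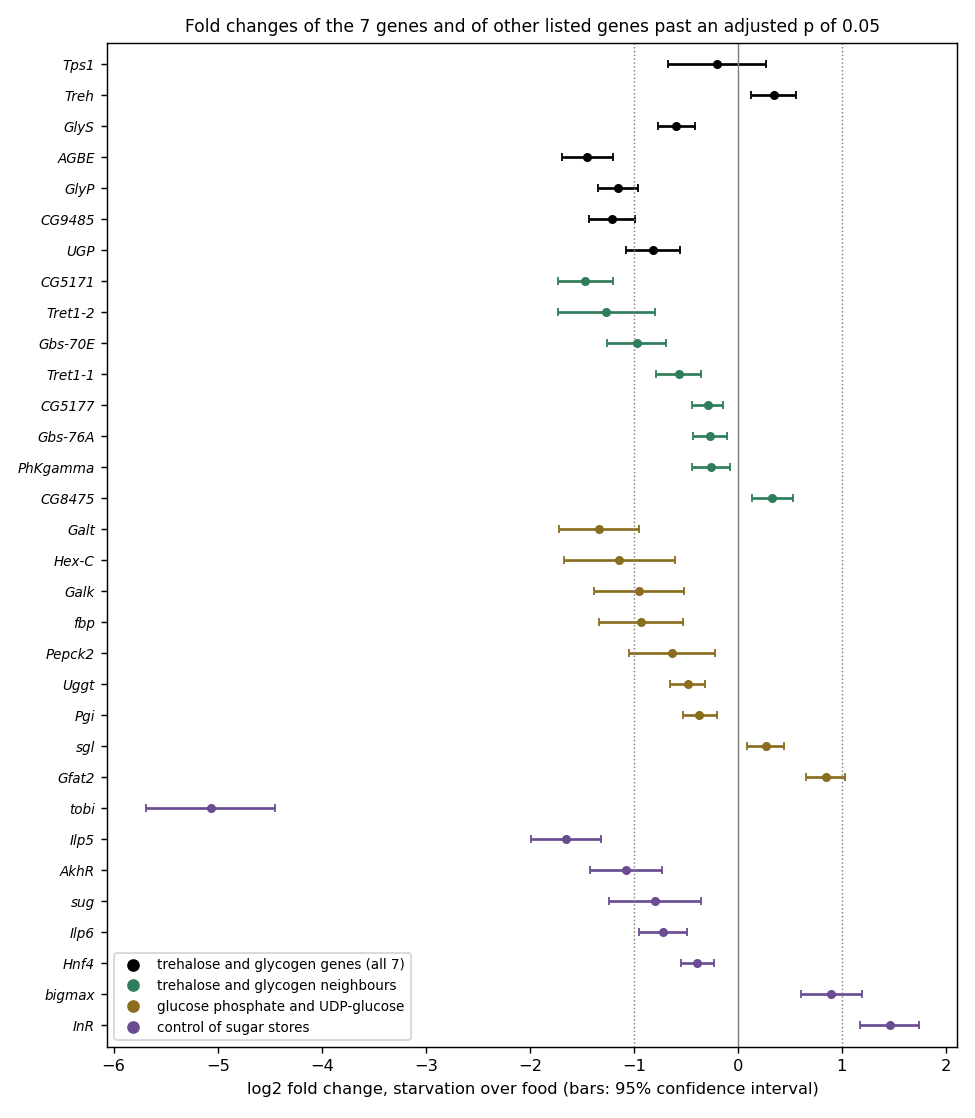
Log2 fold changes of starvation over food with 95% confidence intervals for the 7 genes and for listed genes past an adjusted p of 0.05, other than 1 that is not reported, coloured by list; dotted lines mark 2-fold. The intervals of GlyP and CG9485 include a 2-fold fall, that of AGBE runs from -1.69 to -1.20, that of Tps1 includes no change, and tobi is the farthest from 0 at -5.07.

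A list of 16 genes tied to the control of sugar stores held hormones, their receptors, transcription factors, a kinase and a glucosidase. Of these, 6 were lower and 2 were higher at an adjusted p under 0.05, against 16.7% and 10% of all genes tested. With a fold change of at least 2 as well, 3 were lower, against 5.37% of all genes tested. That count was 2 to 3 when single libraries were left out. The median log2 fold change of the list was -0.13. The farthest was tobi, a glucosidase gene that answers to insulin and the adipokinetic hormone, with 7.05 ± 1.92 CPM under starvation and 237 ± 84.9 CPM on food (SD, n = 4; log2 fold change -5.07, adjusted p = 1.1e-06 in edgeR's quasi-likelihood test). Ilp5, an insulin-like peptide of brain cells, had 4.80 ± 0.663 CPM under starvation and 15.1 ± 2.91 CPM on food (log2 fold change -1.65, adjusted p = 2.2e-05). The insulin-like peptide gene Ilp2, with 50.9 CPM under starvation and 59 CPM on food, did not pass (-0.21, adjusted p = 0.20 in edgeR's test). Neither did Ilp3 (-0.05, adjusted p = 0.88), whereas Ilp6 was lower (-0.72, adjusted p = 0.00044). InR, the insulin receptor, had 89.7 ± 18.0 CPM under starvation and 32.7 ± 0.598 CPM on food (log2 fold change 1.46, adjusted p = 1.7e-05). AkhR, the receptor of the adipokinetic hormone that mobilises fly sugar stores, was at -1.08 (adjusted p = 0.00049), and foxo, a transcription factor that insulin holds back, at 0.04 (adjusted p = 0.80). InR was the gene of the list higher by at least 2-fold, against 0.930% of all genes tested. Without starvation replicate 4, 2 genes of the list were so. bigmax, the partner of the sugar sensor Mondo, had 18.6 ± 3.62 CPM under starvation and 9.98 ± 0.724 CPM on food (log2 fold change 0.90, adjusted p = 5e-04), and Mondo itself was at -0.04 (adjusted p = 0.80). For sug, another transcription factor of the sugar response, the value was -0.80 (adjusted p = 0.013), in a gene that overlaps another in the table, and the call was lost without starvation replicate 1 (adjusted p = 0.054) or 4 (adjusted p = 0.055).

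The genes whose pattern over the 8 libraries was most like that of each of the 7 were taken by Pearson's r of log2 CPM, among 7160 other genes with at least 10 CPM on average. These correlations include the difference between conditions, share the same libraries and are given as a description. For GlyP they were ple, the tyrosine hydroxylase of dopamine synthesis (r = 0.996), Hsc70-5 and Pmp70 (0.995 each). CG9485 was most like Mct1 (0.997), TER94 and AOX1 (0.996 each), and GlyS like ome (0.996), subdued and TER94 (0.988 each). AGBE was most like Pdi, a protein disulphide isomerase (0.999), Rpn6 and CG5171 (0.998 each), and UGP like Taldo, transaldolase, and CG7920 (0.998 each) and Obp99c (0.997). Tps1, whose variation lay mostly within conditions, was most like CG5955 (0.994), AdSL, adenylosuccinate lyase (0.987), and Nmdmc (0.985). Treh was most like Timp (0.992), Cyp6a23 (0.984) and Irc (0.982). TER94 was named for both GlyS and CG9485, and no other gene was named for more than 1 of the 7.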

How the data were processed

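Poly(A)+ RNA was read as 100-bp paired ends. Per the methods, the authors mapped reads with STAR 2.6.1b to release 6 of the fly genome (v6.22), ran ASpli on each alignment and then joined the alignments of a sample. The tool behind the deposited counts is not given in the sources used here. The deposited values are raw counts per gene, not normalized. Strand use in counting is not given in the sources used here. 1 row without a gene name, 0.00418% to 0.00541% of a library, was left out, and 0 columns belonged to no sample.

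Counts were TMM-normalized, filtered with filterByExpr and tested with edgeR 4.0.16 (quasi-likelihood, Benjamini-Hochberg) in R 4.3.3, after a check on simulated counts. SE followed from fold change and F. Thresholds were an adjusted p of 0.05 and, where stated, 2-fold. RPKM used exonic length. Single genes and ratios had exact two-sided permutation tests. Text names the 7 genes, listed genes past both thresholds with up to 4 others per list, and the 3 most alike (prior count 0.5). Lists here exclude the cell type markers, which are counted and mostly not named. 1 gene of these lists past both thresholds is counted but not reported here. CG5177, CG8475, Gfat2, sgl, Ilp2, Ilp3, Ilp6, fbp, Pepck2 and G6P were named besides, after their values were seen. So were the markers Lsp2, apolpp, Apoltp, moody, alrm, Nplp2 and crq. Members and lists were chosen with earlier results of these data known. Gyg and Pgm were listed under other names and matched through RefSeq. Alternatives were DESeq2 1.42.0, limma-voom (limma 3.58.1), edgeR's exact test, RLE and upper-quartile factors, other filters, a replicate block, removal of the 10 most abundant genes or of a length trend, and leaving out each library.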

Additional observations from a re-analysis of the deposited data

Results flagged for a closer look

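Among 46 sets of 4 libraries of a condition examined for a value far from the other 3, 3 were found, and about 2.3 would be so by chance. All 3 were ratios between genes within a library, per exonic kilobase. GlyP over GlyS was 5.63 in food replicate 1, against 4.86 to 4.95 in the other food libraries. CG9485 over GlyP was 0.148 in starvation replicate 2, against 0.127 to 0.129 in the other starvation libraries, a value that food replicate 3 also reached. UGP over Tps1 was 1.35 in food replicate 4, the food library with the lowest Tps1, against 1.15 to 1.18 in the other food libraries. No cause was tested for these values.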

How the results depend on the processing

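The 5 falls and their adjusted p under 0.05 held under all 18 alternatives other than the test against 2-fold, and 3 of them stayed at 2-fold or more in each. Removal of the length trend was fitted within each condition, so that alternative could hardly move a fold change. Over these alternatives AGBE lay between -1.53 and -1.33, CG9485 between -1.27 and -1.09, GlyP between -1.18 and -1.04, UGP between -0.91 and -0.70 and GlyS between -0.61 and -0.48. Tps1 lay between -0.37 and -0.01 and never passed. Treh lay between 0.28 and 0.46, with leave-one-out values from 0.28 to 0.42, and the number of the 7 genes higher at an adjusted p under 0.05 was 0 or 1 when single libraries were left out. Tested against 2-fold, 245 genes were lower and 28 higher, where the count with both thresholds was 647 and 112, and 1 of the 7 genes passed. Treh (0.35), GlyS (-0.59) and UGP (-0.82), whose estimates are under 2-fold, could not pass by the test's construction, and GlyP (-1.15, adjusted p = 0.38) and CG9485 (-1.21, adjusted p = 0.24) did not pass.

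Upper-quartile factors raised the median of all genes to 0.10, and with them the medians were -0.15 for the trehalose and glycogen neighbours, with 4 genes lower, and -0.01 for the list on control of sugar stores, with 2 higher by 2-fold. In the glucose phosphate list 4 genes were then higher, and 4 also with the exonic length trend taken out. When single libraries were left out, the genes higher were 0 to 1 among the neighbours and 1 to 3 among the glucose phosphate genes, of which 1 to 5 were lower by 2-fold, and 1 to 2 genes of the list on control of sugar stores were higher by 2-fold. Alternatives for the lists other than DESeq2, RLE and upper-quartile factors, the block and single libraries were added after the data were seen. The labels do not say that same-numbered libraries are paired. Their deviations correlated at 0.01, 0.06, 0.11 and 0.14 across genes for replicates 1 to 4. Starvation replicates 2, 3 and 4 each correlated best with the food library of their own number, and starvation replicate 1 with food replicate 4. These correlations were small, and a pairing was not taken as given. Spearman correlations of the deviations with exonic length were -0.11 and -0.54 in food and starvation replicates 3, and 0.16 and 0.36 in replicates 4. In replicates 1 and 2 the signs were opposite. The part of these trends in the matches was not tested. With the replicate block the values were -0.25 for Tps1, 0.34 for Treh and -0.83 for UGP. Of the 7 genes and the listed genes named here, markers aside, it ended only the call of PhKgamma (adjusted p = 0.069 in edgeR's test). As paired differences the ratios could reach no p below 0.125 in the exact test. Each of the 7 genes had at least 3296 counts in every library, so the spread between libraries, not counting error, limits these values.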

Other observations

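In starvation replicate 3, genes with more exonic bases had lower counts, with a Spearman correlation across genes of -0.54 between its deviation from the condition mean and exonic length, against 0.26 to 0.36 in the other starvation libraries, which follow in part from replicate 3. Of the 7 genes, AGBE (2322 bases), Tps1 (2920) and UGP (3013), the shortest, were highest in replicate 3 among the starvation libraries. GlyP (3144), GlyS (3340) and CG9485 (5491) were lowest in it. Treh (4369) did not follow this order by length. Though longer than GlyP and GlyS, it had 491 CPM in replicate 3, above replicates 1 (433) and 4 (458) and below replicate 2 (546). With the trend with length taken out, the log2 fold changes were -1.45 for AGBE, -0.19 for Tps1, -0.82 for UGP, -1.15 for GlyP, -0.60 for GlyS, -1.21 for CG9485 and 0.35 for Treh. The trend was fitted to deviations from the mean of each condition, so taking it out could hardly move these values. A length trend between the conditions was not removed.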
